A study of Mus musculus with 3 samples.

Results

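The genes described here are 10 genes of the Nrf2 antioxidant pathway, out of 18193 genes that the array's annotation names. They were taken as a fixed list of symbols: Nfe2l2, Keap1, Hmox1, Nqo1, Gclc, Gclm, Txnrd1, Slc7a11, Srxn1 and Osgin1. All 20 probe sets annotated to these symbols were read, out of 45101 on the array. Of the 10 genes, 9 had at least 1 probe set above the expression filter, and Nqo1 had none. The study took total RNA from the mouse melanoma line B16 at 0 h and after 2 and 4 h in 1 µg/ml doxorubicin. This anthracycline drug poisons topoisomerase II and whose quinone group can cycle between oxidised and reduced forms. RNA of each time was put on 1 Mouse430_2 array from Affymetrix, so there were 3 arrays and no replicates. No untreated culture at 2 or 4 h was among the samples, so drug and time in culture cannot be told apart.

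Nrf2, encoded by Nfe2l2, is a transcription factor that binds antioxidant response elements as a dimer with a small Maf protein. In unstressed cells Keap1 holds it for ubiquitination by a Cul3 ligase. Oxidants and electrophiles modify cysteines of Keap1, so that Nrf2 protein escapes degradation and reaches the nucleus. Much of its control is therefore at the protein, which an array of mRNA does not measure. Its known targets make glutathione, reduce thiols and quinones, and break down heme.

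With 1 array per time point no test across cultures could be made, and no p-value is given. Signals were scaled so that the 2% trimmed mean of each array was 500, which left medians of 154, 136 and 126 on the 0, 2 and 4 h arrays. Signals under 100, the floor, were set to 100 for ratios, and a probe set passed the filter at a mean log2 signal equal to that of 200. The error given with a log2 ratio is the probe-level SD, the spread of ratios among the probe sets of single genes in the same of 4 brightness bins. For the 2 h ratio this SD was 0.27 in the brightest bin and 0.56 in the dimmest. For the 4 h ratio it was 0.32 and 0.66. Variation between cultures or arrays is not part of it. Both comparisons share the 0 h array, and less RNA per cell cannot be told apart from fewer cells that hold it.

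The titles name B16 and doxorubicin, whereas the descriptions name BMDM, an abbreviation also used for macrophages grown from bone marrow, and an agent ET. The labels expand neither, so markers were read on each array. Of 8 pigment cell markers, all 8 reached a signal of 200 on the 0 h array and 7 on both later arrays, with summed signals of 169136, 175853 and 182397. The sum was carried mostly by Tyrp1, Dct, Pmel and Mlana. The pigment cell transcription factors went the other way, with Sox10 at 11710, 2640.0 and 892 and Mitf at 6576, 2031 and 739, as did Tyr at 221, 170 and 142. Of 8 macrophage markers, 4, 3 and 3 reached 200, with summed signals of 1864, 1635 and 1476. Csf1r, at 522, 424 and 376, and Lyz2, at 372, 414 and 398, were above 200 on every array. Itgam and Marco stayed under the floor on every array. Of 5 fibroblast markers, 2 reached 200 on each array. The part of other cells in the values below was not tested.

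The 10 genes did not move as a block. Osgin1 and Nfe2l2 had lower signals after doxorubicin, Slc7a11 and Txnrd1 had higher ones, and the brightest probe sets of Hmox1, Gclc, Gclm and Srxn1 stayed near their 0 h signal. Dimmer probe sets of Gclc, Gclm and Srxn1 departed further. At 2 h, 1 of the 9 genes above the filter was at least 2-fold lower, against 5.69% of all 9723 genes above the filter, and 0 were at least 2-fold higher, against 1.41%. At 4 h, 1 was at least 2-fold lower, against 14.4% of all genes, and 0 were at least 2-fold higher, against 2.32%. The gene past 2-fold was Osgin1 at both times. Over all genes these shares depended on scaling. At 2 h they were 3.84% lower and 2.29% higher with equal medians, 4.14% and 2.31% with quantile normalization, and 9.38% and 0.813% when arrays were scaled on their hybridization spike-ins. At 4 h they were 9.14% and 7.38%, 10.3% and 4.32%, and 22.5% and 0.761% in the same order. With so few genes, these counts do not set the pathway apart from the rest of the array. The median log2 ratio of the 9 genes was 0.16 at 2 h and 0.10 at 4 h, beside -0.01 and -0.07 over all genes. At 4 h the 9 genes ran from -2.43 to 0.99.

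**Figure D1:**
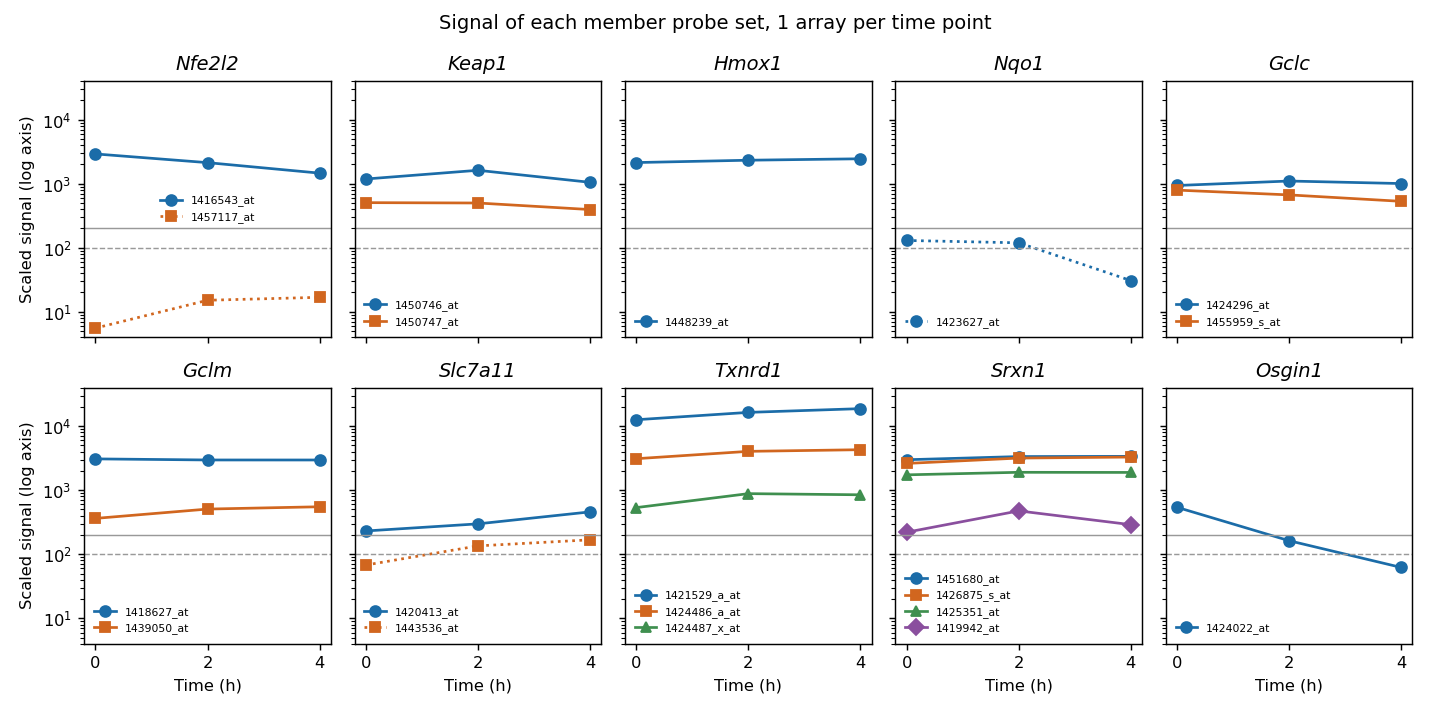
Scaled signal (log axis) of every probe set of the 10 genes against time in h, with 1 array per time point; dotted lines are probe sets under the filter, the dashed line is the floor of 100 and the solid grey line is 200. Nfe2l2 went from 2911 to 1460.1 and Osgin1 from 540.2 to 62.2, while Slc7a11 went from 231 to 458 and the brightest Txnrd1 probe set from 12584 to 18750.0.

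Nfe2l2, the transcription factor itself, was lower at each later time. Its probe set 1416543_at read 2911 at 0 h, 2129 at 2 h and 1460.1 at 4 h. It was therefore lower at each step, and the 4 h array was the lowest. The log2 ratio was -0.45 at 2 h (probe-level SD 0.27) and -0.995 at 4 h (SD 0.32), a 1.99-fold lower signal, just inside the 2-fold line. Among the 2731 genes of the same brightness bin, 4.47% had a lower ratio at 2 h and 3.70% at 4 h. The median of those genes was 0.18 at 2 h and 0.26 at 4 h, so Nfe2l2 went the other way from most genes as bright as itself. The second probe set, 1457117_at, had signals of 5.55, 15.1 and 16.8, all under the floor, and gave no ratio. The lower signal of Nfe2l2 thus rests on 1 probe set. With quantile normalization the 4 h ratio was -1.05 and with scaling to the hybridization spike-ins -1.32, both past 2-fold, and with equal medians it was -0.69.

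Keap1, the cysteine-rich sensor that targets Nrf2 for degradation, showed no steady direction. Probe set 1450746_at read 1182 at 0 h, 1617 at 2 h and 1050.0 at 4 h. It was highest at 2 h, with log2 ratios of 0.45 (SD 0.35) and -0.17 (SD 0.43). Probe set 1450747_at had signals of 505, 499 and 394, with ratios of -0.02 (SD 0.44) and -0.36 (SD 0.53). The 2 h peak was thus seen in 1 of the 2 probe sets, and both were lowest at 4 h. From 2 to 4 h both were lower, by log2 ratios of -0.62 (SD 0.33) and -0.34 (SD 0.42). The 4 h ratio of the brighter probe set was 0.13 with equal medians.

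Among the target enzymes, heme oxygenase 1 (Hmox1), which opens the heme ring and is a widely used readout of oxidative stress, was close to its 0 h signal. Its single probe set, 1448239_at, read 2135 at 0 h, 2322 at 2 h and 2445 at 4 h. These lay within 1.15-fold of each other, in ascending order of time. The log2 ratios of 0.12 (SD 0.27) and 0.20 (SD 0.32) were smaller than the probe-level SD and close to the 0.18 and 0.26 of equally bright genes. The 4 h ratio was -0.13 with spike-in scaling.

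Nqo1, the quinone reductase that transfers a pair of electrons to quinones, was near background. Its single probe set, 1423627_at, read 130 at 0 h, 119 at 2 h and 30.7 at 4 h. All were under 200 and the 4 h signal was under the floor, so the probe set failed the filter. No change in Nqo1 can be read at this signal.

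For glutathione synthesis, Slc7a11 encodes the xCT subunit of the cystine importer. Its probe set 1420413_at read 231 at 0 h, 298 at 2 h and 458 at 4 h. Each later array was higher, with log2 ratios of 0.37 (SD 0.56) and 0.99 (SD 0.66), or 1.99-fold higher at 4 h. The 2 h difference was smaller than the probe-level SD, and the 4 h difference was larger. Of the 2163 genes in the same, dimmest bin, 4.67% had a higher ratio at 4 h, and the median of that bin was -0.28. A second probe set, 1443536_at, failed the filter but had the same order, with signals of 67.8, 135 and 168. From the floor it was at least 1.68-fold higher at 4 h. Slc7a11 passed 2-fold at 4 h with equal medians (log2 ratio 1.29) and with quantile normalization (1.31), and stood at 0.67 with spike-in scaling.

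The 2 subunits of glutamate-cysteine ligase, the first and rate-limiting enzyme of glutathione synthesis, gave probe sets of opposite sign. For the catalytic subunit Gclc, 1424296_at read 936 at 0 h, 1099 at 2 h and 1004 at 4 h. It was highest at 2 h, and the log2 ratios were 0.23 (SD 0.35) and 0.10 (SD 0.43). In contrast, 1455959_s_at had signals of 793, 668 and 530 (ratios -0.25 and -0.58), lower at each step. For the modifier subunit Gclm, 1418627_at had signals of 3080.2, 2962 and 2960.4, with ratios of -0.06 at both times (SD 0.27 and 0.32). Its dimmer probe set 1439050_at had signals of 363, 507 and 551 (ratios 0.48 and 0.60). At 4 h the SD over the 2 probe sets was 0.48 for Gclc and 0.47 for Gclm, larger than the ratio of the brighter probe set of either gene. Neither subunit can be assigned a direction from these arrays.

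Txnrd1, the cytosolic thioredoxin reductase, had a higher signal after doxorubicin in each of its probe sets. The brightest, 1421529_a_at, read 12584 at 0 h, 16389 at 2 h and 18750.0 at 4 h. It was higher at each step, with log2 ratios of 0.38 (SD 0.27) and 0.58 (SD 0.32), or 1.49-fold at 4 h. The second, 1424486_a_at, had signals of 3101, 4039 and 4285 (ratios 0.38 and 0.47), and 1424487_x_at had 535, 883 and 847 (ratios 0.72 and 0.66). All 3 probe sets were thus lowest at 0 h, and the SD over them was 0.20 at 2 h and 0.10 at 4 h. The suffix _a_at marks probe sets that recognise several transcripts of the same gene. The suffix _x_at marks probes that may also recognise transcripts of other genes, which may add to the signal of 1424487_x_at. Most bright genes also had positive ratios: of the 2731 genes in the brightest bin, 18.4% lay above the 4 h ratio of Txnrd1. With quantile normalization the 4 h ratio was 0.19 and with spike-in scaling 0.25, less than the probe-level SD.

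Sulfiredoxin (Srxn1) reduces peroxiredoxins that have been over-oxidised. Its 3 bright probe sets stood near the 0 h signal. The brightest, 1451680_at, read 2988 at 0 h, 3349.9 at 2 h and 3375 at 4 h, with ratios of 0.16 (SD 0.27) and 0.18 (SD 0.32). The other two bright ones ran between 0.12 and 0.33 over both times. The dim probe set 1419942_at differed from them, with signals of 221, 475 and 289.6. It was 2.15-fold higher at 2 h (log2 ratio 1.11, SD 0.56) and at 0.39 (SD 0.66) at 4 h. Of the 4 Srxn1 probe sets, the dimmest alone was past 2-fold at 2 h. The 4 h ratio of the brightest was -0.15 with spike-in scaling.

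Osgin1, oxidative stress induced growth inhibitor 1, had the lowest ratios of the 10 genes. Its single probe set, 1424022_at, read 540.2 at 0 h, 163 at 2 h and 62.2 at 4 h. It was under 200 by 2 h and under the floor by 4 h. It was 3.32-fold lower at 2 h (log2 ratio -1.73, SD 0.56) and at least 5.40-fold lower at 4 h. The mean floored signal was 206, so Osgin1 passed the filter only through its 0 h signal and had to be lower later. Its presence among genes past 2-fold is therefore a description and no support for the pathway as a whole.

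**Figure D2:**
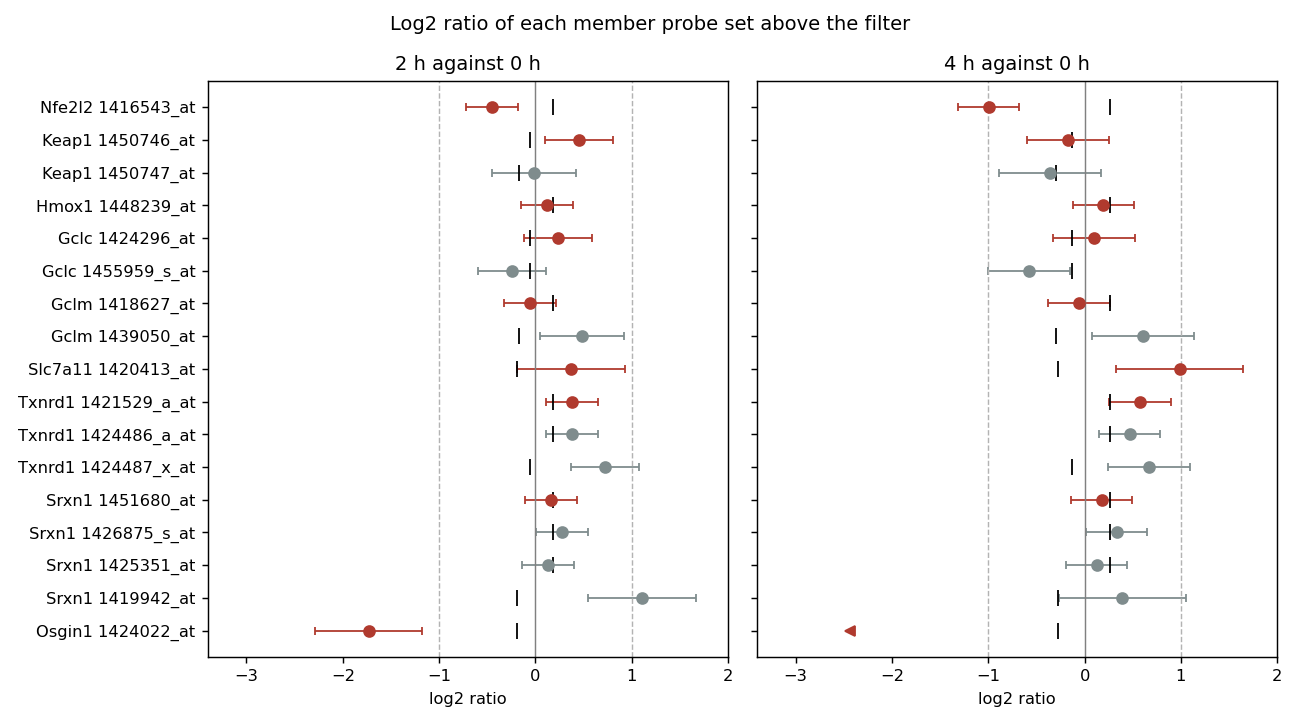
Log2 ratio to 0 h of each of the 17 probe sets above the filter at 2 h (left) and 4 h (right); bars are the probe-level SD, red points stand for the gene, grey points are its other probe sets, black ticks are the median of all genes in the same brightness bin, and the triangle is a bound. Nfe2l2 at -0.995 and Osgin1 at -2.43 lie left of their ticks at 4 h, Slc7a11 at 0.99 lies right, and the probe sets of Gclc and Gclm straddle 0.

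The order of the 9 genes at 4 h ran from Osgin1 through Nfe2l2, Keap1, Gclm, Gclc, Srxn1, Hmox1 and Txnrd1 to Slc7a11. From Keap1 to Hmox1 the ratios lay between -0.17 and 0.20, so these neighbours did not differ beyond the probe-level SD. The signs of these 5 genes also depended on array scaling. Keap1 and Gclm were positive at 4 h with equal medians, and Hmox1, Gclc and Srxn1 were negative with spike-in scaling. Nfe2l2, Osgin1, Slc7a11 and Txnrd1 kept their sign at 4 h in all 4 scalings. The 3 genes whose pair of log2 ratios lay nearest to that of Nfe2l2, among 9574 genes above the floor on all 3 arrays, were Dip2b, Dgke and Pard6a, at Euclidean distances of 0.015, 0.019 and 0.019 over the 2 ratios.

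**Figure D3:**
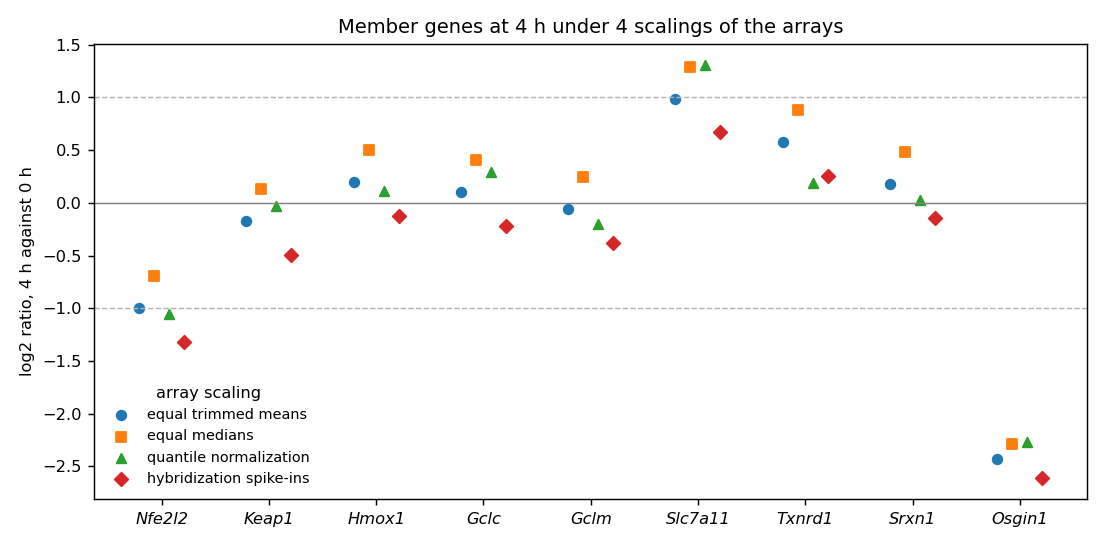
Log2 ratio of 4 h to 0 h (vertical axis) of the 9 genes above the filter under 4 ways of scaling the arrays, with dashed lines at 2-fold. Osgin1 and Nfe2l2 lie below 0 and Slc7a11 and Txnrd1 above 0 in every scaling, and the other 5 genes have points on both sides.

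Promoter sequence was read next. Known Nrf2 targets are recognised in part by antioxidant response elements, so the share of these genes that hold one is a description and is not independent of how they were chosen. Windows of 300 bases around annotated transcription starts, from RefSeq on GRCm38.p6, were found for 8 of the 10 genes (10 windows), and not for Gclc and Hmox1. The core antioxidant response element was searched only as TGACNNNGC, on both strands. In this form it occurred in windows of Nfe2l2, Gclm, Txnrd1 and Srxn1, or 4 of 8 genes. It occurs in windows of 14% of the 27025 genes in the table. The AP-1 element, searched as TGANTCA, which reads the same on both strands, occurred in Srxn1 and Osgin1, against 8.97% of genes. None of these matches overlapped a match of the other element as searched. That search fixed C as the 4th base of the antioxidant response element, and G at that base was not searched. With G there, the proximal Srxn1 AP-1 match, followed by gc, would also fit. So would the Osgin1 AP-1 match, preceded by gc, on the opposite strand. The sequences below are the matches with up to 15 bases on each side, 5′ to 3′ on the strand of the gene, with the match in capitals. Antioxidant response element matches lay in Nfe2l2, with a lower signal, and in Txnrd1, with a higher one. They also lay in Gclm and Srxn1, whose brightest probe sets stayed near the 0 h signal. The AP-1 matches lay in Srxn1 and in Osgin1, whose lower direction the filter fixed.

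Nfe2l2 antioxidant response element, chr2:75704880-75704913, minus strand: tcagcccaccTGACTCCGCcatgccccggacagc

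Gclm antioxidant response element (on the opposite strand), chr3:122245408-122245446, plus strand: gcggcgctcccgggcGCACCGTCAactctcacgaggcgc

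Txnrd1 antioxidant response element (on the opposite strand), chr10:82859099-82859137, plus strand: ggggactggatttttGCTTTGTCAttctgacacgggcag

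Srxn1 antioxidant response element (on the opposite strand), chr2:152105537-152105573, plus strand: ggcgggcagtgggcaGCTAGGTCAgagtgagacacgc

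Srxn1 AP-1 element, distal, chr2:152105407-152105443, plus strand: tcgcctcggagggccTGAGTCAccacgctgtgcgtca

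Srxn1 AP-1 element, proximal, chr2:152105464-152105500, plus strand: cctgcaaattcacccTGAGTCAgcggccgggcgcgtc

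Osgin1 AP-1 element, chr8:119437035-119437071, plus strand: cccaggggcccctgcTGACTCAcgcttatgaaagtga

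The match began 240 bases upstream of the start in Nfe2l2, 134 in Gclm and 92 in Txnrd1, where it lay in 1 of 3 windows, and at base 29 of the transcript in Srxn1. The AP-1 matches began 102 and 45 bases upstream in Srxn1 and 97 in Osgin1. Osgin1 and Srxn1, which share an AP-1 match, had 4 h log2 ratios of -2.43 and 0.18. Nfe2l2 and Txnrd1, which share an antioxidant response element match, stood at -0.995 and 0.58. A match is a description of the letters, and binding was not measured.

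Other genes of the pathway came from a list of 65, of which 57 matched a probe set with 1 gene symbol and 51 passed the filter. Of these 51, 3 were lower by 2-fold or more at 2 h and 1 was higher, beside 5.69% and 1.41% of all genes. At 4 h, 4 were lower and 4 higher, beside 14.4% and 2.32%. With equal medians these 4 h counts became 2 lower and 9 higher, beside 9.14% and 7.38% of all genes. With spike-in scaling they became 7 lower and 0 higher, beside 22.5% and 0.761%. The 4 lower genes of the main analysis include Bach1, which passed the filter only through its 0 h signal. They also include Txnip, which was under the floor at 4 h and passed only through its 0 and 2 h signals. At 4 h these 51 genes had a median of 0.26 beside -0.07 over all genes. The median of the brightest bin of all genes was also 0.26, and with spike-in scaling the median of the 51 was -0.06 at 4 h. Medians of the regulators were below 0 and those of the enzyme groups above, but with spike-in scaling the glutathione and the heme and iron medians were also below 0 at 4 h. Groups were not matched for brightness, and over all genes the 4 h medians of the 3 dimmer bins were -0.28, -0.30 and -0.13. The difference between groups was not tested.

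Regulators of Nrf2 had a median log2 ratio of -0.75 at 2 h and -0.79 at 4 h over 9 genes, and 8 of the 9 were below 0 at 4 h. Bach1, a repressor that competes with Nrf2 for the same elements, read 798 at 0 h, 147 at 2 h and 129 at 4 h. It was 6.19-fold lower at 4 h (log2 ratio -2.63). Both later signals were under 200, so Bach1, like Osgin1, passed the filter only through its 0 h signal and had to be lower later. Among small Maf partners, Mafg had signals of 1471, 830.3 and 788 (-0.90 at 4 h, SD 0.64 over 2 probe sets). Mafk had signals of 939, 318 and 473 (-0.99). Maff went the other way, with signals of 918, 1357 and 1798 (0.97). It was past 2-fold with equal medians (1.27) and quantile normalization (1.07), but at 0.65 with spike-in scaling.

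Of the factors that act on Nrf2 turnover, the kinase Gsk3b was at -1.27 at 4 h with an SD of 1.00 over 3 probe sets, and the ubiquitin ligase adaptor Btrc at -0.79. The scaffold Cul3, which works with Keap1, was at -0.20 with an SD of 0.49 over 4 probe sets, and the autophagy receptor Sqstm1, which binds Keap1, at -0.15. The related factor Nfe2l1 was at -0.36. Apart from Bach1, whose direction the filter fixed, Gsk3b was the 1 regulator past 2-fold at 4 h, and it was at -0.97 with equal medians. With spike-in scaling 5 of the 9 regulators were at least 2-fold lower at 4 h, beside 22.5% of all genes. These were Bach1, Gsk3b, Mafg (-1.22), Mafk (-1.31) and Btrc (-1.11). The median of the regulators was below 0 in each of the 4 scalings, from -1.11 with spike-ins to -0.48 with equal medians, whereas Cul3 and Sqstm1 turned positive with equal medians.

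Of the glutathione genes, 11 of 12 were above 0 at 4 h with a median of 0.28, close to the 0.26 of the brightest bin of all genes. With spike-in scaling 4 of 12 were above 0. At 4 h, 3 of the 12 were at least 2-fold higher, beside 2.32% of all genes, and 0 were lower, beside 14.4%. Glrx, glutaredoxin, had signals of 217, 440.1 and 502 (log2 ratio 1.21). Gstm1, a glutathione transferase with close paralogs that its probes may also detect, had 644, 1236 and 1394 (1.12), and the microsomal transferase Mgst1 had 384, 573 and 769 (1.00). Slc3a2, the heavy chain that pairs with the Slc7a11 product, was lowest at -0.04, with signals of 8268, 7659 and 8038. With spike-in scaling none of the 12 was 2-fold higher and the median was -0.05 at 4 h. Gstm1 and Mgst1 were named after their values were seen.

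Thioredoxin and peroxiredoxin genes split. Txnip, which binds and inhibits thioredoxin, had signals of 909, 310.0 and 62.6 and was at least 9.09-fold lower at 4 h. Sesn2, a sestrin named after its value was seen, was at -1.12, but at -0.82 with equal medians and -0.80 with quantile normalization. Prdx2, a peroxiredoxin, was the highest of the 9 at 0.69, with signals of 9220, 11960 and 14877. In the NADPH supply group all 5 genes were above 0 at 4 h, from Idh1 at 0.12 to the pentose phosphate enzyme Tkt at 0.79, but 3 of 5 were with spike-in scaling. Idh1, an isocitrate dehydrogenase, was at -0.82 at 2 h with an SD of 1.21 over 2 probe sets. At 4 h that SD was 0.85, larger than the Idh1 ratio, so its place above 0 depends on the probe set taken.

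Heme and iron genes, which handle heme, its breakdown products and iron storage, had a median of 0.07 over 6 genes at 4 h, and -0.26 with spike-in scaling. Blvrb, a biliverdin reductase, was highest, with signals of 1383, 2341 and 2642 (0.93), and Fech, ferrochelatase, lowest at -0.26 with an SD of 0.50 over its probe sets. Among 6 carbonyl and quinone enzymes, Adh7, an alcohol dehydrogenase, had signals of 2519, 4445 and 5932 (1.24, SD 0.34 over 2 probe sets) and was the 1 gene past 2-fold. With spike-in scaling it was at 0.91, and with equal medians Ephx1, an epoxide hydrolase named after its value was seen, was also past 2-fold (1.08). Akr1b8, an aldo-keto reductase, was lowest at -0.46. The 4 superoxide and peroxide enzymes were all above 0 at 4 h by their brightest probe sets, from Sod2 at 0.45 to catalase (Cat) at 0.84. These ratios stayed above 0 in each of the 4 scalings. The SD over probe sets at 4 h was 0.91 for Sod1, larger than its ratio of 0.51. That SD was 0.24 for Sod2 and 0.20 for Cat.

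**Figure D4:**
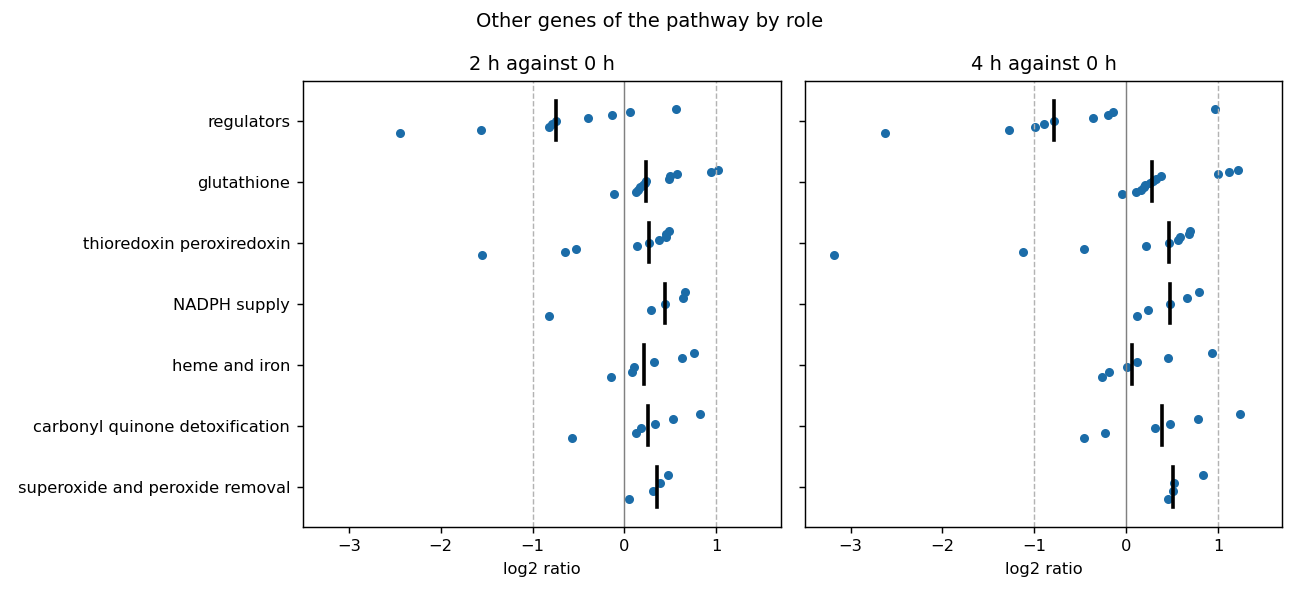
Log2 ratio to 0 h at 2 h (left) and 4 h (right) of the 51 other pathway genes above the filter, 1 point per gene, grouped by role, with a black bar at each median and dashed lines at 2-fold. The regulators have a median of -0.79 at 4 h, while the medians of the other 6 groups lie between 0.07 and 0.51.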

How the data were processed

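Per the file headers the arrays were Mouse430_2, and the submitters' processing notes name GCOS 1.4. The signal algorithm used was not given in the sources used here. What the authors deposited are linear intensities, already scaled: on each of the 3 arrays their 2% trimmed mean was 150.0. Arrays were assigned to times from their titles. The labels also name an "ET" treatment that they do not expand.

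Intensities were rescaled to a trimmed mean of 500, floored at 100 and put on a log2 scale. Of 45101 probe sets, 34958 carry 1 symbol in the platform annotation, 932 carry several and 9211 are not listed. Symbols were updated by Entrez ID for 34754. The 64 control probe sets were left out of gene values. In all, 15785 probe sets and 9723 genes passed the filter of 200, and a gene took its brightest passing probe set. Probe-level SDs used 3905 genes with several passing probe sets. The counting step was tested on simulated data.

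By rule, the named genes are all members, every regulator above the filter, the highest and lowest gene of each other role at 4 h, and the 3 genes nearest to Nfe2l2. Gstm1, Mgst1, Sesn2 and Ephx1 were named outside the rule, after their values were seen, and marker genes are named as checks. Members and lists were chosen with earlier results of these data known. The number of arrays limits the precision. Scripts ran in Python 3.11.15 with pandas 2.3.3 and numpy 2.4.6; figures used matplotlib 3.10.9, and trimmed means scipy 1.17.1.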

Additional observations from a re-analysis of the deposited data

How the results depend on the processing

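Alternatives covered array scaling, the floor, the filter, averaging over probe sets and leaving out suffixed probe sets. Values as deposited gave the main results by construction, since rescaling multiplied every array by the same factor. With equal medians the median log2 ratio of the members was 0.32 at 2 h and 0.40 at 4 h, and with spike-in scaling -0.051 and -0.22. The median of all genes at 4 h was -0.07 in the main analysis, 0.24 with equal medians and -0.39 with spike-ins. At 4 h, 1 member (Slc7a11) was at least 2-fold higher with equal medians and 1 with quantile normalization, and 2 (Nfe2l2 and Osgin1) were at least 2-fold lower with quantile normalization and 2 with spike-ins. With a filter of 400, which drops Osgin1, 0 members were 2-fold lower at either time. Of 192 values of single members under the alternatives, 190 moved by less than the overall probe-level SD. The others were Osgin1 at 4 h, at -3.12 with a floor of 50 and -1.43 with a floor of 200, where the floor sets the bound. The count of 190 does not measure stability, because several alternatives leave most member values unchanged by design. The overall SD, 0.40 at 2 h and 0.48 at 4 h, also exceeded most member ratios, so changes of sign passed as unmoved. No paired analysis was possible because each group holds 1 array. Dim signals limit Nqo1, Osgin1 and Slc7a11.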
